A study of Mus musculus with 6 samples.

Results

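A set of 10 genes, several of them best known from testis, muscle or skin, was followed through nuclei of the mouse hippocampus after an inhibitor of histone deacetylases. Of 31053 genes in the tables these are *Sh2d4b*, *AU019990*, *Nup210l*, *Sycp2*, *Fhad1*, *Neb*, *Abca12*, *Speg*, *Fndc1* and *Mettl24*. They were chosen by name, from earlier results on these same libraries, because each rose strongly with the inhibitor in 1 cell type. The difference between inhibitor and vehicle was therefore selected on these data, and it is given here as a description with no p-value. Where a gene is said to be called in that comparison, this states only on which side of an adjusted p of 0.05 the fit put it, and nothing is read from the number of such calls.

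RNA of single nuclei was counted in droplets, in 6 libraries. Each library pooled the hippocampi of 5 C57BL/6J males at an age of 12 weeks, so that 30 mice were used. Mice were injected with vehicle or with CI-994, an inhibitor of class I histone deacetylases, at 30 mg/kg, 1 h before training, and tissue was taken 1 h after training. For contextual fear conditioning (CFC) a mouse explores a chamber and receives foot shocks, here 2 of 0.2 mA, while the Context mice saw the chamber without shock. There were 2 vehicle libraries after CFC (Veh-CFC), 2 inhibitor libraries after CFC (HDACi-CFC), 1 vehicle library (Veh-Context) and 1 inhibitor library (HDACi-Context) without shock. No group was left without an injection. A library is a pool of animals, so the spread between libraries is that between pools. The title and the treatment label of the library labelled Veh-Context say vehicle, while its description says HDACi, and it is used as vehicle. The tissue label names the dentate gyrus (DG) besides the hippocampus, but 4407 nuclei carried CA1 markers and 1198 carried CA3 markers, beside 8985 with DG granule cell markers.

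The matrices held 30323 barcodes, and 26839 nuclei remained after filters, 3573 to 5334 per library, with a median of 5368 to 6808 unique molecular identifiers (UMIs, counted RNA molecules) per nucleus. Pairs of libraries shared 1 to 11 cell barcodes. Clusters were named from markers, so a class is called, for example, microglia-like. The 11 classes with enough nuclei for a fit ranged from 258 Cajal-Retzius-like nuclei to the 8985 DG granule-like nuclei, and 2293 nuclei lay in 6 clusters that stayed unnamed. Levels below are CPM, the UMIs of a gene scaled to a common total of all UMIs of the class in a library, and a share is the percentage of nuclei with at least 1 UMI. Fitted values are log2 fold changes of edgeR with trimmed-mean (TMM) scaling, given with their standard errors. In such bulk sums and shares, more RNA per nucleus and more nuclei making it are told apart only through the counts per nucleus given below.

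Histone deacetylases remove acetyl groups from histones, and acetylated chromatin is in general easier to transcribe. Class I enzymes sit in repressor complexes that keep many genes of other lineages silent, among them germ-line genes, which are also held down by DNA methylation and by variant Polycomb complexes. Inhibitors of these enzymes are studied in memory because acetylation in hippocampal neurons follows learning. The chosen genes have no common pathway. *Nup210l* encodes a nuclear pore membrane protein of the testis and *Sycp2* a lateral element protein of the synaptonemal complex, which holds paired chromosomes together in meiosis. *Neb* encodes nebulin, the giant protein along the thin filaments of skeletal muscle, and *Speg* a kinase of striated muscle. *Abca12* encodes the lipid transporter that loads the lamellar granules of the epidermis. *Sh2d4b*, *Fhad1*, *Fndc1* and *Mettl24* encode an SH2 domain protein, a forkhead-associated domain protein, a fibronectin type III domain protein and a methyltransferase-like protein, and *AU019990* is annotated as a long intergenic non-coding RNA.

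On GRCm38 the genes lie on 7 chromosomes: *Abca12* at chr1:71242276-71414910 on the minus strand, *Speg* at chr1:75375297-75432320 on the plus strand, *AU019990* at chr2:132598195-132653068 on the plus strand, *Neb* at chr2:52136647-52378474 and *Sycp2* at chr2:178345293-178407685, both on the minus strand. *Nup210l* lies at chr3:90104132-90212048 (plus), *Fhad1* at chr4:141890438-142015082 (minus), *Mettl24* at chr10:40683282-40811083 (plus), *Sh2d4b* at chr14:40813789-40893266 (minus) and *Fndc1* at chr17:7738569-7827302 (minus). Their gene bodies span 54.9 to 242 kb, against a median of 26.9 kb for the genes tested. Exons make up 1.20% of the *Mettl24* gene body and 22.3% of that of *Speg*.

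The 250 bases before the start site are shown for the pair that rose most in microglia-like nuclei and the pair that rose most in nuclei of oligodendrocyte precursor (OPC) type, since each pair moved together in 1 class. They are RefSeq sequences of GRCm38.p6, 5′ to 3′ in the direction of the gene, with capitals marking matches to GGGCGG (the GC box) or CAGCTG (an E-box) on either strand. The windows are chr14:40893315-40893564 for *Sh2d4b* (minus strand), chr2:132597946-132598195 for *AU019990* (plus), chr2:178407659-178407908 for *Sycp2* (minus) and chr1:75375047-75375296 for the first of 4 annotated starts of *Speg* (plus).
Sh2d4b: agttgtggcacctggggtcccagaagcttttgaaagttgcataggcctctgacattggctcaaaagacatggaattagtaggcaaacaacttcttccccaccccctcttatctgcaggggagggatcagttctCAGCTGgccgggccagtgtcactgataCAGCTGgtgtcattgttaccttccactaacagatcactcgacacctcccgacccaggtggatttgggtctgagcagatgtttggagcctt
AU019990: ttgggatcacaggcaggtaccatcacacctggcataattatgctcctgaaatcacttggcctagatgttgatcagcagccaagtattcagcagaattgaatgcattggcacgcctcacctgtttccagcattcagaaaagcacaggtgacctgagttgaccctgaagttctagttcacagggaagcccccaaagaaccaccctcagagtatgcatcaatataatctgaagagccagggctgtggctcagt
Sycp2: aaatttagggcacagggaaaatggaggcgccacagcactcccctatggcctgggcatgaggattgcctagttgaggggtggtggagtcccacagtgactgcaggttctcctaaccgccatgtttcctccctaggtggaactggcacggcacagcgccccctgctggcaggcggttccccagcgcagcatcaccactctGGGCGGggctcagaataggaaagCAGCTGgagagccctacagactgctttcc
Speg: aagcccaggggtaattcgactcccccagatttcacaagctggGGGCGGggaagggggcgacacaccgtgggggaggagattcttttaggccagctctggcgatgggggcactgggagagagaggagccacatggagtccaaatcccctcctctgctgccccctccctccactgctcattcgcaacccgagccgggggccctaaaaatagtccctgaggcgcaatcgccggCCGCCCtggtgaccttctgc
The microglial pair had 3 CpG dinucleotides in the *Sh2d4b* window and 1 in that of *AU019990*, with a GC content of 52.0% and 48.4%. The OPC pair had 7 and 12 CpG dinucleotides and a GC content of 60.4% and 63.6%, above the median of 52.4% over all 32817 windows in the table. CAGCTG was found at positions −117 and −90 from the start of *Sh2d4b* and at −29 from that of *Sycp2*, and in 13% of all windows. GGGCGG was found at −52 in *Sycp2* and at −208 and −20 in *Speg*, and in 32.7% of all windows. Neither was in the *AU019990* window, and 5 other motifs searched on both strands, TATAAA (the TATA box), CACGTG (another E-box), TTCCCGC (the E2F motif), TGACGTCA (the cAMP response element) and TGAGTCA (the AP-1 motif), were in none of these 4 windows, against 12.4%, 6.02%, 3.82%, 1.55% and 4.46% of all windows. The table held windows for 8 of the 10 genes. Among the rest, the *Fndc1* window had 18 CpG dinucleotides and that of *Mettl24* 15, while that of *Fhad1* had none.

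In microglia-like nuclei *Sh2d4b* had 3 and 0 UMIs under vehicle, 55 and 149 under inhibitor after CFC, 0 in Veh-Context and 111 in HDACi-Context. All 3 inhibitor libraries were far above all 3 vehicle libraries. The share of nuclei with a UMI was 1.68% and 0% under vehicle, 18.2% and 31.4% under inhibitor after CFC, 0% in Veh-Context and 28.3% in HDACi-Context. The counts of 0 of 240 and 0 of 228 nuclei allow a share of nuclei with a UMI of up to 1.25% and 1.32%, which limits detection at this depth and not the share of nuclei that express the gene. The pooled level after CFC was 74.1 times that of vehicle, with a 95% counting interval of 25.0 to 362. In Context the level was at least 35.5-fold higher, counted against a floor of 3 UMIs in the vehicle library. The fitted change of 6.30 ± 0.42 ranked 2 of 6963 genes tested in microglia-like nuclei, and it came to between 4.97 and 9.89 when 1 library was left out, the highest without Veh-CFC replicate 1, where the vehicle level is 0.

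In the other 10 classes *Sh2d4b* had at most 65 UMIs per library. In astrocyte-like nuclei it had 2 and 3 UMIs under vehicle, 5 and 12 under inhibitor after CFC, 6 in Veh-Context and 13 in HDACi-Context. In subicular-like nuclei the levels were 8.24 and 5.97 CPM under vehicle, 11.6 and 8.85 CPM under inhibitor after CFC, 10.5 CPM in Veh-Context and 12.7 CPM in HDACi-Context, with a fitted change of 0.78 ± 0.42 that was not called. Cajal-Retzius-like nuclei had 0 and 2 UMIs against 7 and 5 after CFC and 2 against 3 in Context, and OPC-like nuclei 1 and 1 against 1 and 2 after CFC and 0 against 3 in Context. Counting microglia-like nuclei, these are the 5 classes in which both inhibitor libraries had a higher level than both vehicle libraries after CFC, and in Context the inhibitor level was the higher in all 5 and in 8 of the 11 classes. In DG granule-like nuclei *Sh2d4b* had 30 and 65 UMIs under vehicle and 22 and 24 under inhibitor after CFC, so both inhibitor libraries lay lower, with a fitted change of −0.53 ± 0.29 that was not called. In CA1-like nuclei the counts were 17 and 37 against 13 and 28, and in oligodendrocyte-like nuclei 3 and 7 against 3 and 24, with overlapping levels. The share of OPC-like nuclei with a UMI was 0.952% and 0.820% under vehicle and 0.885% and 0.769% under inhibitor after CFC, at a median depth of 2940 and 3409 UMIs in the HDACi-CFC libraries against 1357 and 1731 in microglia-like nuclei. Under vehicle the highest class level after CFC was that of immature neuron-like nuclei, at 19.3 CPM, and under inhibitor that of microglia-like nuclei, at 265 CPM.

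*AU019990* had 5 and 13 UMIs under vehicle, 85 and 123 under inhibitor after CFC, 6 in Veh-Context and 88 in HDACi-Context, in 2.79% and 5.00%, 30.2% and 31.4%, 2.63% and 29.1% of microglia-like nuclei. The level rose from 16.5 and 26.6 CPM to 318 and 268 CPM after CFC, a fitted 3.90 ± 0.29, and the Context ratio was 14.1 with a counting interval of 6.21 to 39.4. No inhibitor library came near a vehicle library. In OPC-like nuclei it had 2 UMIs in each Veh-CFC library and none among the 113 and 130 nuclei of the HDACi-CFC libraries, which allows shares of nuclei with a UMI, not of nuclei expressing it, of up to 2.65% and 2.31%. In interneuron-like nuclei it was called higher at 0.84 ± 0.29, from 21 and 31 UMIs to 34 and 35, a call kept in 1 of the 4 fits that left out a library. It was lost without Veh-CFC replicate 1, Veh-CFC replicate 2 or HDACi-CFC replicate 1 (edgeR adjusted p = 0.172, 0.0539 and 0.213), with library-size scaling and in DESeq2. In the other tested classes the fitted values ran from 0.04 ± 0.44 in subicular-like to 0.53 ± 0.25 in CA3-like nuclei, none called.

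*Nup210l* differed in that vehicle microglia-like nuclei already had UMIs of it in each library. Its counts were 26 and 27 UMIs under vehicle, 86 and 186 under inhibitor after CFC, 29 in Veh-Context and 119 in HDACi-Context. The vehicle shares were 14.0%, 8.75% and 11.4%, and the inhibitor shares 30.2%, 47.3% and 34.3%, with no overlap. The fitted change was 2.70 ± 0.22 and the Context ratio 3.94 (2.60 to 6.13). UMIs of the gene were found in every class of vehicle nuclei, from 25.4 CPM in CA3-like to 70.5 CPM in microglia-like nuclei after CFC. Free RNA in droplets can give UMIs in nuclei that do not express a gene, and its part in these low levels was not tested. No other class of the 9 in which it was also tested showed a called change. In DG granule-like nuclei the levels were 34.9 and 34.7 CPM under vehicle and 26.9 and 30.2 CPM under inhibitor after CFC. Context did not follow this: there the inhibitor level exceeded the vehicle level in all 11 classes, with 26.8 against 41.0 CPM in DG granule-like nuclei (ratio 1.53, interval 1.34 to 1.75).

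**Figure D1:**
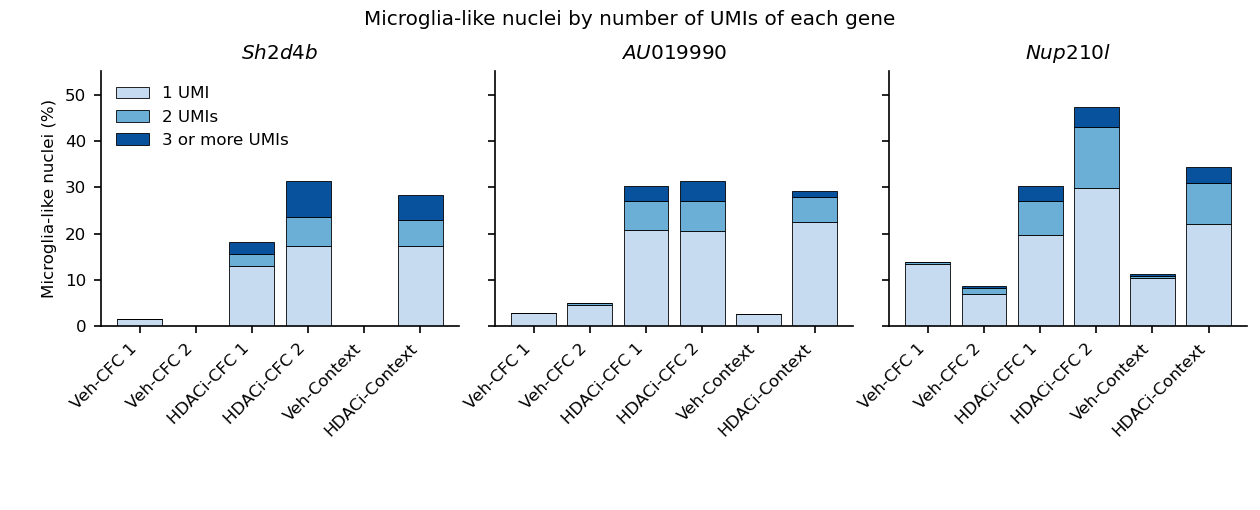
The percentage of microglia-like nuclei with 1, 2 or at least 3 UMIs of *Sh2d4b*, *AU019990* and *Nup210l* in each of the 6 libraries, as stacked bars. All 3 HDACi libraries stand above all 3 vehicle libraries for each gene, and nuclei with 3 or more *Sh2d4b* UMIs appear in inhibitor libraries alone.

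Counts per nucleus show how the RNA was spread. In HDACi-CFC replicate 2, 45 microglia-like nuclei had 1 UMI of *Sh2d4b*, 16 had 2 and 20 had at least 3, up to 7 in 1 nucleus, while 177 had none. The 3 vehicle UMIs lay in 3 different nuclei. At least 1 of the 3 genes was seen in 17.9% and 13.8% of microglia-like nuclei under vehicle, 60.4% and 71.7% under inhibitor after CFC, 13.6% in Veh-Context and 62.6% in HDACi-Context. In HDACi-CFC replicate 2, 81 of 258 nuclei had *Sh2d4b*, 122 had *Nup210l* and 46 had both. With every nucleus thinned to 1000 UMIs, the *Sh2d4b* shares were 1.14%, 0%, 12.5% and 22.6% in the CFC libraries and 0% and 16.3% in Context.

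*Fhad1* was also called higher in microglia-like nuclei, from 6 and 17 UMIs to 17 and 33 after CFC and from 9 to 36 in Context, fitted at 1.49 ± 0.39. The highest vehicle share was 5.42% and the lowest inhibitor share 8.85%. All 4 of the genes that passed the count filter in this class were called higher, where 20.8% of all 6963 genes tested were. That contrast chose the genes, so the count supports nothing. Some other markers moved in the same nuclei. The summed level of 7 endothelial markers, of which 3 to 7 were seen per library, was 32.8 to 54.9 CPM over the 3 vehicle libraries and 95.9 to 149 CPM over the 3 inhibitor libraries. For 9 DG granule cell markers the ranges were 1986 to 2152 CPM and 3158 to 3496 CPM, and for 9 CA1 markers 644 to 807 CPM and 419 to 547 CPM. Their part in the results was not tested. The endothelial-like nuclei themselves had 0 and 0 *Sh2d4b* UMIs under vehicle and 1 and 2 under inhibitor after CFC, and the lower levels in DG granule-like nuclei are given above. Cluster 25, a small unnamed group led by *Mrc1*, had 1 and 1 *AU019990* UMIs under vehicle and 1 and 7 under inhibitor after CFC.

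In OPC-like nuclei the germ-line gene *Sycp2* had 82 and 92 UMIs under vehicle, 212 and 315 under inhibitor after CFC, 151 in Veh-Context and 509 in HDACi-Context. It was far from silent without the inhibitor. The vehicle shares were 51.4%, 48.4% and 68.0%, and the inhibitor shares 83.2%, 89.2% and 90.8%. Levels rose from 205 and 195 CPM to 603 and 647 CPM after CFC, a fitted 1.96 ± 0.15, and the Context ratio was 2.54 (2.11 to 3.06). The order of libraries was Veh-CFC lowest, then Veh-Context, then HDACi-CFC, then HDACi-Context, with no overlap. In microglia-like nuclei, 1.12% and 2.08% of vehicle and 1.56% and 2.71% of inhibitor nuclei had a UMI after CFC.

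*Sycp2* was also called higher in oligodendrocyte-like, astrocyte-like, interneuron-like and CA1-like nuclei, with smaller fitted changes, while in microglia-like nuclei it was under the count filter. The fitted change was 1.47 ± 0.16 in oligodendrocyte-like nuclei, with 63.0 and 64.2 CPM under vehicle and 130 and 140 CPM under inhibitor after CFC. It was 1.07 ± 0.13 in interneuron-like nuclei, 1.04 ± 0.18 in astrocyte-like nuclei and 0.47 ± 0.11 in CA1-like nuclei. The CA1 call was lost under library-size scaling, where the change was 0.14. In DG granule-like nuclei the levels ran the other way, 36.1 and 34.7 CPM under vehicle, 28.3 and 22.8 CPM under inhibitor after CFC, 43.6 CPM in Veh-Context and 32.1 CPM in HDACi-Context. The fitted change there was −0.12 ± 0.13 with TMM scaling, not called, and −0.48 with library-size scaling, called lower.

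The next gene along the chromosome moved in step. Such a rise is not rare, since 16.5% of all genes tested in OPC-like nuclei were called higher. *Phactr3*, which encodes a regulator of protein phosphatase and actin, ends 6.80 kb from the 3′ end of *Sycp2* on the other strand. It had 196 and 210 UMIs in OPC-like nuclei of Veh-CFC and 284 and 440 under inhibitor after CFC, 201 in Veh-Context and 391 in HDACi-Context. By edgeR's quasi-likelihood test with Benjamini-Hochberg adjustment it rose by 1.19 ± 0.13 (adjusted p = 1.76e-07), and also in oligodendrocyte-like (1.09), interneuron-like (0.84) and astrocyte-like nuclei (0.69), while in DG granule-like nuclei it fell by 0.62. Over 66 levels (11 classes by 6 libraries), *Phactr3* was the gene most like *Sycp2* among 16483 genes, with r = 0.92 of log2(CPM + 1), 0.90 over the vehicle libraries and 0.96 over the inhibitor libraries. These points share libraries, depth and classes, so r is a description. *Ppp1r3d*, 3.52 kb from the 5′ end, had at most 1 UMI per library in OPC-like nuclei.

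*Speg* had 4 and 6 UMIs in OPC-like nuclei of Veh-CFC, 26 and 23 under inhibitor after CFC, 11 in Veh-Context and 21 in HDACi-Context. The CFC groups did not overlap, at 3.81% and 4.92% of nuclei against 19.5% and 14.6%, and the fitted change was 2.64 ± 0.45. The Context ratio was smaller, 1.44, and its interval of 0.66 to 3.30 spans 1. This muscle kinase gene was an ordinary neuronal transcript here: in vehicle CA3-like nuclei it was seen in 64.1% and 59.9% of nuclei, and in CA1-like nuclei its level was 79.7 and 74.2 CPM. Neuronal changes were small, 0.70 ± 0.20 in interneuron-like, 0.52 ± 0.09 in DG granule-like and 0.46 ± 0.10 in CA1-like nuclei, all called higher with TMM scaling and none with library-size scaling (0.36, 0.16 and 0.12). The interneuron call was also lost without Veh-CFC replicate 2. In oligodendrocyte-like nuclei the shares were 1.70% and 1.43% under vehicle and 1.30% and 1.93% under inhibitor after CFC.

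Within OPC-like nuclei, markers of the class itself were higher with the inhibitor: the 7 OPC markers summed to between 13708 and 15560 CPM in the 3 vehicle libraries and between 22454 and 24226 CPM in the 3 inhibitor libraries. The 9 DG granule cell markers summed to 2061 to 2128 CPM and 3284 to 3560 CPM, and the 7 subicular markers to 464 to 586 CPM and 198 to 341 CPM. For 6 markers of immature neurons the ranges were 147 to 163 CPM and 188 to 242 CPM. They were 939 to 1040 CPM and 720 to 888 CPM for 9 CA3 markers, and 25.0 to 39.4 CPM and 2.85 to 23.7 CPM for 4 epidermal markers. The part of these markers in the *Sycp2* and *Speg* results was not tested. The share of OPC-like nuclei with a UMI of either gene went from 54.3% and 51.6% to 86.7% and 89.2% after CFC, and from 70.9% to 92.3% in Context. *Des*, the desmin gene 6.72 kb before *Speg*, had 0 UMIs in OPC-like nuclei of every library, and *Gmppa*, 3.61 kb behind it, had 2 to 17.

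**Figure D2:**
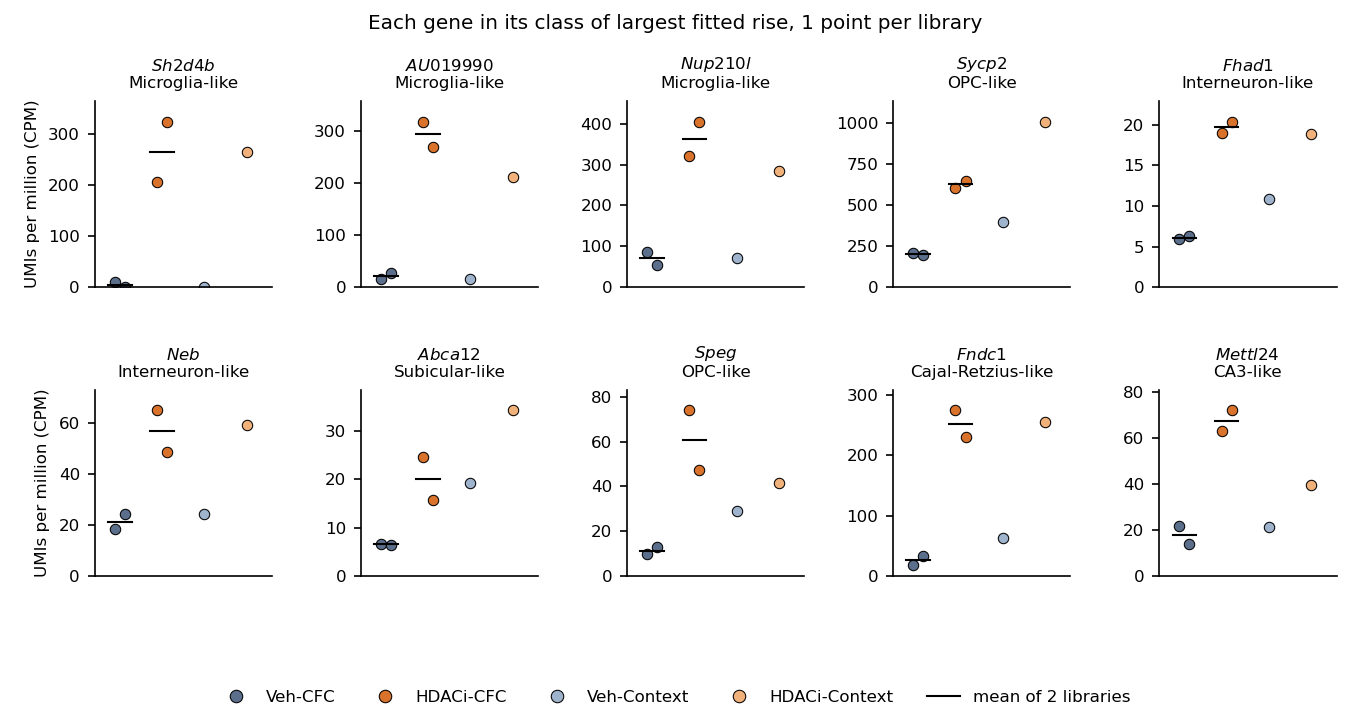
CPM of each of the 10 genes in the class of its largest fitted rise, 1 point per library and a bar at the mean of the 2 CFC libraries of a group. In every panel both HDACi-CFC points lie above both Veh-CFC points, and the HDACi-Context point lies above the Veh-Context point. The panels differ in scale.

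In interneuron-like nuclei *Neb* had 37 and 58 UMIs under vehicle, 106 and 121 under inhibitor after CFC, 74 in Veh-Context and 197 in HDACi-Context. Shares were 12.1% and 15.9% under vehicle, 25.4% and 23.1% under inhibitor after CFC, 18.6% in Veh-Context and 33.9% in HDACi-Context, with every inhibitor library above every vehicle library. The fitted change was 1.69 ± 0.20 and the Context ratio 2.42 (1.84 to 3.20). Vehicle interneuron-like nuclei already had the highest level of the 11 classes, 21.3 CPM, and the lowest was that of DG granule-like nuclei at 4.20 CPM. In CA1-like nuclei both inhibitor libraries lay lower, with 5.73 and 5.14 CPM under vehicle and 4.71 and 4.55 CPM under inhibitor after CFC. The levels overlapped in CA3-like nuclei (7.82 and 4.89 CPM against 4.94 and 4.26 CPM), in subicular-like nuclei (9.34 and 4.48 CPM against 2.89 and 8.35 CPM) and in DG granule-like nuclei (4.45 and 3.94 CPM against 4.09 and 3.56 CPM). In DG granule-like nuclei of Context the level was 5.74 CPM with vehicle and 1.97 CPM with the inhibitor.

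The nebulin gene overlaps *Gm13522*, a transcript model on the other strand that had 17 and 35 UMIs in interneuron-like nuclei under vehicle and 48 and 48 under inhibitor after CFC, a rise of 1.32 ± 0.30 (adjusted p = 0.00276, edgeR). Whether counting used the strand is not given in the sources used here, so the UMIs of *Neb* and *Gm13522* may not be fully separate. Of the genes beside them, *Arl5a* rose by 0.51 ± 0.14 (adjusted p = 0.0116, and 0.333 with library-size scaling) and *Rif1* fell by 0.56 ± 0.16 (adjusted p = 0.0130). *Nebl*, the nebulin relative of heart and brain, rose by 0.53 ± 0.09 (adjusted p = 0.000393), 0.20 with library-size scaling and then not called. The pattern of *Neb* was most like those of *Gad2*, a gene of GABA synthesis (r = 0.62 over the 66 levels), and *Col19a1* (r = 0.62).

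*Fhad1* had its largest rise in the same class, from 12 and 15 UMIs under vehicle to 31 and 51 under inhibitor after CFC, and from 33 to 63 in Context. That is 5.91 and 6.32 CPM against 19.0 and 20.4 CPM after CFC, fitted at 2.01 ± 0.30, with a Context ratio of 1.73 (1.12 to 2.73). Among the 3 interneuron clusters, in cluster 10, with *Sst* among its leading genes, the levels were 4.1 and 8.3 CPM under vehicle and 24.2 and 23.0 CPM under inhibitor, while in cluster 18, with *Hapln1* and *Lamp5* among its leading genes, the inhibitor libraries after CFC had none. *Neb* went from 18.3 and 24.1 CPM to 89.0 and 59.2 CPM in cluster 10 and from 22.1 and 21.4 CPM to 51.9 and 40.1 CPM in the *Vip*-led cluster 14, and its libraries overlapped in cluster 18 (13.1 and 30.4 CPM against 27.6 and 38.6 CPM).

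In subicular-like nuclei *Fhad1* had 17 and 21 UMIs under vehicle, 23 and 54 under inhibitor after CFC, 33 in Veh-Context and 58 in HDACi-Context, a fitted 1.86 ± 0.29. It was also called higher in CA1-like nuclei (0.91 ± 0.17), in CA3-like nuclei (1.64 ± 0.52, from 3 and 6 UMIs to 13 and 16, a call lost whichever library was left out) and in DG granule-like nuclei (0.53 ± 0.10, and 0.16 with library-size scaling, not called). Vehicle DG granule-like nuclei had the highest level of any class, 38.3 CPM with 20.4% of nuclei, so the gene was well expressed there without the drug. The overlapping model *Fhad1os2* had 0 and 1 UMIs in interneuron-like nuclei under vehicle and 2 and 8 under inhibitor after CFC. The 10 interneuron markers themselves summed to 11776 to 13252 CPM in the 3 vehicle and 14580 to 17842 CPM in the 3 inhibitor libraries. The ranges were 852 to 889 CPM and 1079 to 1145 CPM for 7 OPC markers, 615 to 812 CPM and 865 to 996 CPM for 9 CA3 markers, and 521 to 535 CPM and 670 to 759 CPM for 6 Cajal-Retzius markers. Also apart were 6 skeletal and smooth muscle markers, of which 4 or 5 were seen per library, at 7.39 to 9.69 CPM and 11.7 to 12.8 CPM. For 6 markers of immature neurons the ranges were 163 to 179 CPM and 241 to 281 CPM. For 9 DG granule cell markers they were 587 to 597 CPM and 604 to 683 CPM. The part of these markers in the *Neb* and *Fhad1* results was not tested.

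*Abca12* had its highest level in subicular-like nuclei in both CFC groups. It had 12 and 13 UMIs under vehicle, 17 and 32 under inhibitor after CFC, 57 in Veh-Context and 78 in HDACi-Context, and none in any of the 6 libraries in Cajal-Retzius-like and immature neuron-like nuclei. The levels were 6.60 and 6.47 CPM, 24.6 and 15.7 CPM, 19.3 CPM and 34.3 CPM, so Veh-Context lay among the HDACi-CFC libraries. The fitted change after CFC was 1.82 ± 0.37 and the Context ratio 1.78 (1.25 to 2.55). HDACi-CFC replicate 1 gave only 66 subicular-like nuclei, 1.85% of its nuclei against 3.43% to 5.43% in the other libraries, and the fitted change was 1.61 to 2.24 when 1 library was left out. Within these nuclei 7 OPC markers, of which 4 to 7 were seen per library, summed to 853 to 924 CPM in the 3 vehicle and 1021 to 1516 CPM in the 3 inhibitor libraries. The ranges were 569 to 620 CPM and 698 to 841 CPM for 9 CA3 markers, 76.4 to 85.6 CPM and 97.1 to 130 CPM for 8 ependymal and choroid markers, and 135 to 155 CPM and 156 to 169 CPM for 6 markers of immature neurons, while the 7 subicular markers overlapped. Their part in the *Abca12* result was not tested. Thinned to 1000 UMIs, the shares were 0% and 3.11% under vehicle and 1.52% and 1.80% under inhibitor after CFC, near the level of 1 UMI, so no change could be read at that depth. Nearly all subicular UMIs of it lay in cluster 12, with 12 and 13 UMIs under vehicle and 16 and 30 under inhibitor after CFC, against 0 and 0 and 1 and 2 in cluster 17.

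*Fndc1* had 2 and 4 UMIs among 38 and 43 Cajal-Retzius-like nuclei of Veh-CFC, 30 and 33 among 45 and 45 of HDACi-CFC, 7 in Veh-Context and 30 in HDACi-Context. Cajal-Retzius cells are early-born neurons that secrete reelin. The shares were 5.26% and 6.98% under vehicle, 40.0% and 42.2% under inhibitor after CFC, 10.9% in Veh-Context and 29.3% in HDACi-Context. The fitted change was 3.26 ± 0.47, rank 4 of 2375 genes tested in that class, and the Context ratio 4.04 (1.74 to 10.9). The 6 Cajal-Retzius markers summed to 12413 to 14180 CPM in the 3 vehicle and 19524 to 22743 CPM in the 3 inhibitor libraries, and 7 subicular markers to 393 to 558 CPM and 703 to 914 CPM. For 9 DG granule cell markers the ranges were 1049 to 1302 CPM and 1448 to 2302 CPM. For 7 mossy cell markers, of which 2 to 4 were seen, they were 154 to 197 CPM and 247 to 265 CPM. The 10 interneuron markers were lower with the inhibitor, at 389 to 506 CPM and 281 to 329 CPM. The part of these markers in the result was not tested. Subicular-like nuclei themselves had 18 and 20 *Fndc1* UMIs with vehicle and 1 and 8 with inhibitor after CFC, a fitted −1.24 ± 0.50 that was not called.

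In several neuronal classes *Fndc1* had lower levels with the inhibitor. In DG granule-like nuclei it had 170 and 249 UMIs under vehicle and 100 and 126 under inhibitor after CFC, 342 in Veh-Context and 176 in HDACi-Context, and the fitted −0.40 ± 0.15 was the 1 call lower among the 10 genes. That call was kept in 1 of the 4 fits that left out a library, and lost without Veh-CFC replicate 1, Veh-CFC replicate 2 or HDACi-CFC replicate 2 (edgeR adjusted p = 0.193, 0.0533 and 0.294) and in DESeq2. The library-size value was −0.76 and the Context ratio 0.429 (0.355 to 0.516). In CA1-like nuclei the levels went from 19.3 and 11.7 CPM to 7.25 and 8.76 CPM after CFC and from 16.3 to 7.35 CPM in Context. OPC-like nuclei went from 57.4 and 40.3 CPM to 14.2 and 20.5 CPM, a fitted −1.11 ± 0.43, not called. In CA3-like nuclei CFC and Context pointed in different directions, with 13 and 20 UMIs under vehicle, 25 and 63 under inhibitor after CFC, 83 in Veh-Context and 55 in HDACi-Context. The CA3 call of 1.36 ± 0.31 was lost without HDACi-CFC replicate 2.

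*Mettl24* had its largest rise in CA3-like nuclei. There it had 42 and 34 UMIs under vehicle, 127 and 236 under inhibitor after CFC, 68 in Veh-Context and 149 in HDACi-Context, in 15.7% and 14.4%, 40.4% and 43.0%, 17.5% and 36.8% of nuclei. The fitted change was 2.20 ± 0.20 and the Context ratio 1.88 (1.40 to 2.54). The fitted change was 1.56 ± 0.16 in CA1-like nuclei, 1.48 ± 0.12 in DG granule-like nuclei with 118 and 191 against 242 and 373 UMIs, and 1.06 ± 0.30 in subicular-like nuclei, the last lost without Veh-CFC replicate 2 and with library-size scaling. Astrocyte-like nuclei changed by 1.82 ± 0.36, and interneuron-like nuclei, at 0.57 ± 0.38, were not called. Oligodendrocyte-like nuclei had 1 and 4 UMIs under vehicle and 2 and 4 under inhibitor after CFC. Within CA3-like nuclei 9 CA3 markers summed to 4157 to 4979 CPM in the 3 vehicle and 5042 to 5950 CPM in the 3 inhibitor libraries. The ranges were 749 to 790 CPM and 977 to 1083 CPM for 7 OPC markers, of which 6 or 7 were seen per library, 91.4 to 95.4 CPM and 110 to 131 CPM for 9 astrocyte markers, of which 8 or 9 were seen, and 106 to 128 CPM and 140 to 151 CPM for 6 markers of immature neurons, of which 5 or 6 were seen. For 6 skeletal and smooth muscle markers, of which 3 or 4 were seen, the ranges were 7.15 to 7.34 CPM and 8.89 to 13.1 CPM. The part of these markers in the *Mettl24* result was not tested.

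The genes on either side of *Mettl24* rose with it in CA3-like nuclei, where 13.8% of all genes tested were called higher. *Ddo*, the D-aspartate oxidase gene that ends 1.44 kb before it on the same strand, had 10 and 24 UMIs under vehicle and 35 and 36 under inhibitor after CFC, a rise of 1.05 ± 0.34 (adjusted p = 0.0251, edgeR), and it was not called with library-size scaling. *Cdc40*, a splicing factor gene on the other side, rose by 0.98 ± 0.11 (adjusted p = 3.33e-07). Not every neighbour of the 10 genes rose. *Atic*, beside *Abca12*, changed by 0.19 ± 0.28 in subicular-like nuclei and was not called (edgeR adjusted p = 0.676). Of 19 other methyltransferase-like genes tested in CA3-like nuclei, 7 were called lower and none higher, where 12% of all 11588 genes tested there were called lower. With library-size scaling 9 were lower, and the share of all genes in this class is not given for that scaling. The 7 included *Mettl13* (−2.27 ± 0.42, adjusted p = 0.000274) and *Mettl22* (−2.51 ± 0.48, adjusted p = 0.000393).

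**Figure D3:**
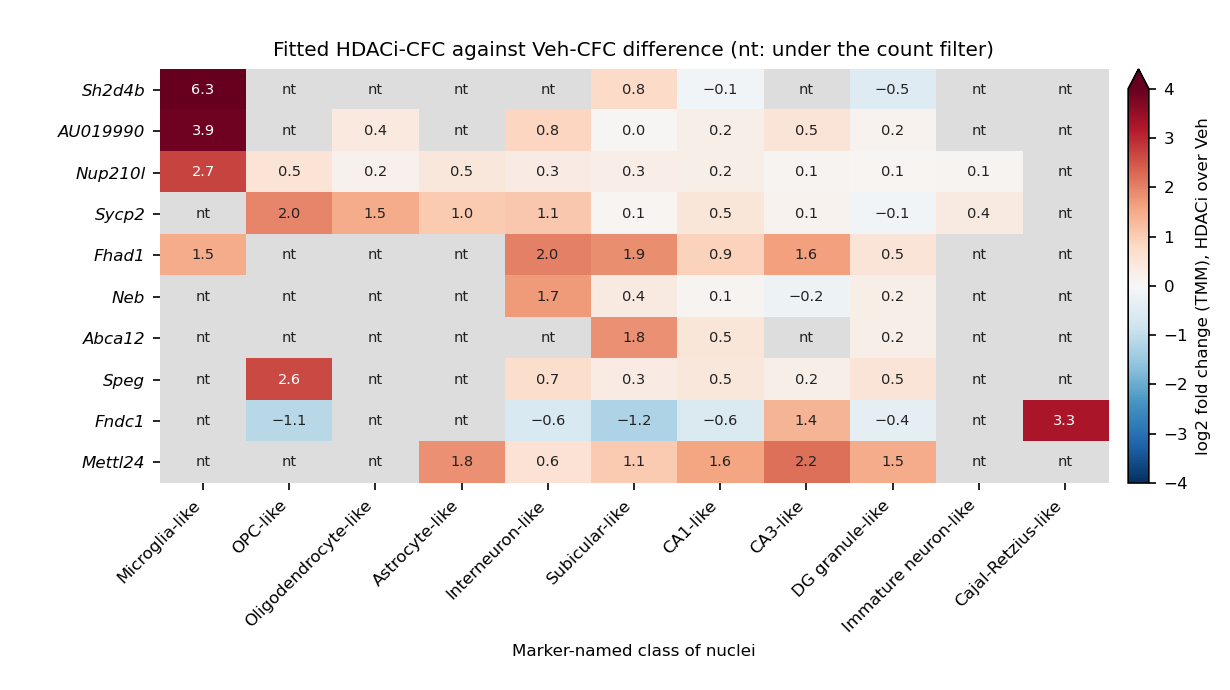
Fitted log2 fold change of HDACi-CFC over Veh-CFC (colour and number) for the 10 genes (rows) in the 11 marker-named classes (columns), with nt for pairs under the count filter. Values above 1 lie in 1 class for *Sh2d4b*, *AU019990*, *Nup210l*, *Neb*, *Abca12* and *Speg*, in 4 for *Sycp2* and *Fhad1* and in 5 for *Mettl24*, while *Fndc1* has 2 such classes and 5 below 0.

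Of 110 pairs of gene and class, 63 passed the count filter, and 28 of these were called higher and 1 lower after CFC. Over all genes, 17.3% of 104571 pairs were called higher and 15.7% lower. The genes were selected on this contrast and a pair with few UMIs passed the filter only where it was high, so nothing is read from these counts. Scaling moved them. With library-size scaling, which lowered fitted changes by a median of 0.23 to 0.38 in the 11 classes, 21 pairs were called higher and 8 lower. Over all pairs these shares were 8.02% and 32.3%. With counts per nucleus 15 were higher and 6 lower, and no share of all pairs is given for that scaling. The pair of class and gene with the largest rise stayed called higher for each of the 10 genes under both of these scalings. Those pairs had the largest rises in the contrast that chose the genes, so nothing is read from this. In unnamed cluster 7, *Mettl24* was called higher (1.45 ± 0.17) and the other 7 genes tested there were not.

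The rule that defined near-silent genes was a level under 2 CPM in both vehicle libraries, and that for expression at least 5 CPM, at least 3 UMIs in both inhibitor libraries and a rise of at least 4-fold. Across the genome 99 pairs of gene and class met it after CFC, 0.166% of 59722 pairs that were low enough in vehicle, and 97 genes met it in 1 class and 1 gene in 2. Pairs counted as switched off after CFC, from expression to near-silence, numbered 450. The number of pairs that could be switched off is not given, so no share stands beside it. The levels in the rule are CPM, and with library-size scaling fitted changes were lower than with TMM scaling. The 99 are therefore not read as a general rise of near-silent genes, nor the 450 as a general fall. None of the 10 genes met the rule for a rise from near-silence, although 8 of their pairs were low enough. In their classes of largest rise the vehicle levels were too high, as for *Sh2d4b* with its 3 UMIs in Veh-CFC replicate 1. In Context, with 1 library per group, *Sh2d4b* met the rule in microglia-like and OPC-like nuclei and *AU019990* in Cajal-Retzius-like nuclei, where 16.3%, 15.5% and 14.5% of low genes did, so in Context the rule was not very selective. The OPC case rests on 0 UMIs with vehicle and 3 with inhibitor.

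**Figure D4:**
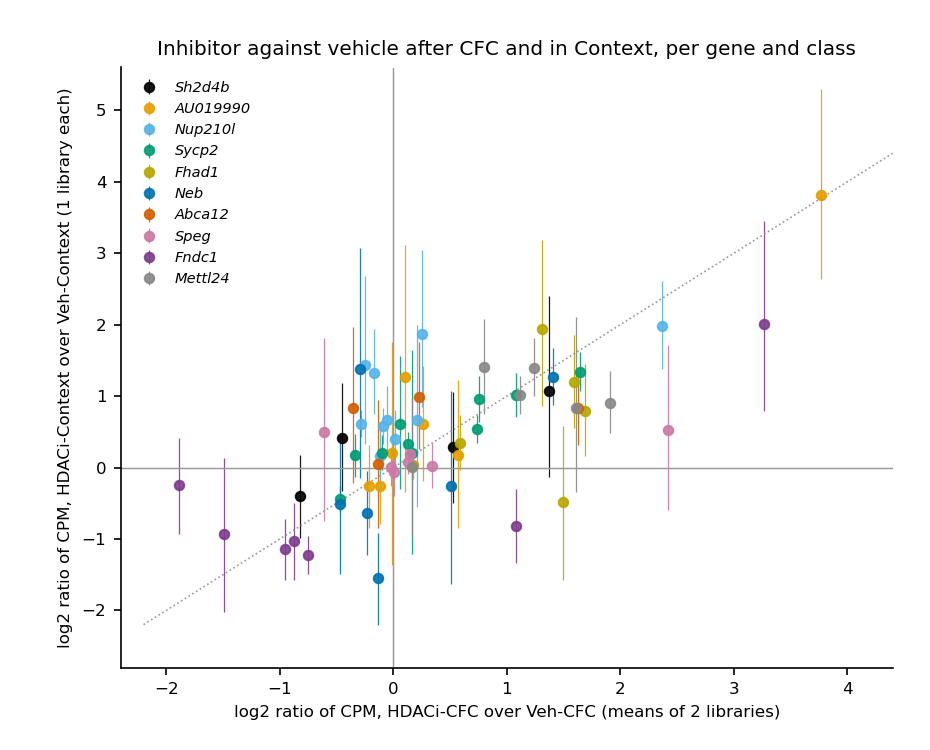
log2 ratio of CPM with inhibitor over vehicle after CFC (horizontal, means of 2 libraries) and in Context (vertical, 1 library each, bars for the 95% counting interval), for the 67 pairs of gene and class with at least 50 UMIs in all and at least 1 UMI in each group; the dotted line marks equal ratios. *AU019990* and *Nup210l* in microglia-like nuclei and *Fndc1* in Cajal-Retzius-like nuclei lie at the upper right. *Speg* in OPC-like nuclei lies below the line, and *Sh2d4b* in microglia-like nuclei is absent because Veh-Context had no UMI.

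The comparison of CFC with Context was not used to choose the genes, so it was tested over all 6 libraries with the drug as a covariate. The Context matrices were made with another version of Cell Ranger, and exposure and run cannot be told apart. In DG granule-like nuclei 7 microglia markers summed to 144 to 161 CPM in the CFC libraries. In Veh-Context and HDACi-Context they summed to 435 and 297 CPM. In microglia-like nuclei themselves they were lower in Context, at 13142 and 14769 CPM against at least 15772 CPM after CFC. The part of these markers in the exposure differences and Context ratios was not tested. Of 76 pairs tested, 9 were called higher after CFC and 14 lower, against 12.1% and 13.2% of 128024 pairs over all genes. The count of higher calls is near what that background gives, and the lower calls came mostly from 1 gene, *Sycp2*. Nothing is read from either count. Calls were common in some classes: in DG granule-like nuclei 19.8% of all genes tested were called higher and 21.1% lower. These shares were 19.0% and 20.2% in CA1-like and 4.25% and 6.19% in OPC-like nuclei.

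*AU019990* made up 6 of the 9 pairs called higher. Its level in DG granule-like nuclei was 9.47 and 9.17 CPM under vehicle, 7.89 and 8.18 CPM under inhibitor after CFC, and 4.09 and 3.41 CPM in Veh-Context and HDACi-Context. All 4 CFC libraries lay above both Context libraries, and the fitted difference was 1.24 ± 0.18 (edgeR adjusted p = 3.78e-05). It was 1.15 ± 0.17 in CA1-like (adjusted p = 2.87e-05), 1.10 ± 0.23 in CA3-like (adjusted p = 0.000412), 1.36 ± 0.29 in interneuron-like (adjusted p = 0.000796) and 1.58 ± 0.42 in subicular-like nuclei (adjusted p = 0.00585). In oligodendrocyte-like nuclei it was 2.23 ± 0.38 (adjusted p = 0.000241), with 37, 34, 31 and 33 UMIs in the CFC libraries and 5 and 12 in Context. In microglia-like nuclei, where the drug difference was large, the exposure difference of 0.45 was not called. The interneuron call was lost without HDACi-Context (adjusted p = 0.0601) and the subicular call without Veh-Context (adjusted p = 0.165).

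*Sycp2* went the other way, lower after CFC than in Context in 8 classes. In OPC-like nuclei the difference was −0.82 ± 0.13 (adjusted p = 5.18e-06), and the CFC level lay below the Context level within vehicle (205 and 195 against 397 CPM) and within inhibitor (603 and 647 against 1007 CPM). It was −0.83 ± 0.16 in subicular-like (adjusted p = 0.000234), −0.67 ± 0.11 in interneuron-like (adjusted p = 3.14e-05), −0.64 ± 0.09 in CA1-like (adjusted p = 2.04e-05) and −0.60 ± 0.12 in CA3-like nuclei (adjusted p = 0.000242). The smallest was that of DG granule-like nuclei, −0.30 ± 0.10 (adjusted p = 0.0272), kept in 2 of the 6 fits that left out a library and lost without Veh-CFC replicate 2, HDACi-CFC replicate 2 or either Context library (adjusted p = 0.0752, 0.107, 0.0815 and 0.116). The remaining calls were those of oligodendrocyte-like (−0.55 ± 0.13, adjusted p = 0.00635, and 0.0657 without HDACi-Context) and astrocyte-like nuclei (−0.49 ± 0.15, adjusted p = 0.0172, and 0.0587 and 0.435 without Veh-Context and HDACi-Context). *Abca12* was also lower after CFC, in subicular-like nuclei (−1.10 ± 0.24, adjusted p = 0.000935), a call lost without Veh-Context (adjusted p = 0.0688). It was lower as well in CA1-like (−1.50 ± 0.33, adjusted p = 0.00116, and 0.114 without HDACi-Context) and CA3-like nuclei (−1.45 ± 0.48, adjusted p = 0.0185, and 0.0695 without HDACi-CFC replicate 2).

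Smaller exposure differences were called for *Fndc1* in subicular-like nuclei (−1.16 ± 0.31, adjusted p = 0.0049) and in CA3-like nuclei (−0.71 ± 0.28, adjusted p = 0.0468), the former lost without HDACi-Context (adjusted p = 0.140) and the latter turning to 0.14 without Veh-Context. *Speg* was higher after CFC in CA1-like (0.26 ± 0.09, adjusted p = 0.0294) and lower in interneuron-like nuclei (−0.54 ± 0.15, adjusted p = 0.0103). In DG granule-like nuclei *Mettl24* (0.44 ± 0.11, adjusted p = 0.00362) and *Fhad1* (0.29 ± 0.09, adjusted p = 0.0185) were higher after CFC, and both calls were lost without HDACi-Context (adjusted p = 0.0876 and 0.181). The *Speg* calls were lost without Veh-Context (adjusted p = 0.0743 in CA1-like and 0.206 in interneuron-like nuclei), and the first also without HDACi-Context (0.189) or Veh-CFC replicate 1 (0.0812), the second also without Veh-CFC replicate 2 (0.0665). For *Nup210l* the fitted exposure differences lay between −0.36 and 0.23 in the classes tested, none called, and no call was made for *Neb* or *Sh2d4b* either.

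The tissues for which several of these genes are known were looked for in the libraries. Over all nuclei *Krt14* of epidermis had 0 UMIs in all 6 libraries, *Tnp1* of spermatids 0 to 4 and *Tnnt3* of skeletal muscle 0 to 3. These were the genes with the fewest UMIs of each list, and other genes named for such tissues were present in vehicle. Over the 3 vehicle libraries the germ-line genes *Sycp3*, *Ddx4* and *Dazl* had 766 to 1390, 134 to 193 and 79 to 177 UMIs. The epidermal genes *Krt10* and *Lor* had 418 to 859 and 122 to 191, and *Acta1* of muscle had 129 to 226.

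Other genes of the same tissues were called in both directions in DG granule-like nuclei, the class with the most UMIs, where 23.5% of 15599 genes were called higher and 26.4% lower. These lists were written with results of these data known. Of 34 other meiosis and germ-line genes tested, 6 were higher and 5 lower with a median of 0.15, beside 0.01 for all genes. *Tdrd5*, a gene of germ granules, fell by 1.88 ± 0.27 (adjusted p = 1.02e-05) and *Ythdc2*, a meiotic RNA helicase gene, by 0.88 ± 0.11 (adjusted p = 1.89e-06). *Hspa2* rose by 0.88 ± 0.20 (adjusted p = 0.000987), and not with counts per nucleus (adjusted p = 0.160). Of 47 axoneme and sperm flagellum genes 9 were higher, such as the dynein gene *Dnah2* (0.97 ± 0.11), and 9 lower, such as *Odf2* (−1.40 ± 0.09), with a median of 0.12.

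Of 32 genes of the sarcomere and striated muscle, 14 were higher and 1 lower, with a median of 0.29. *Klhl40* (1.53 ± 0.27), *Jph1*, which joins surface and internal membranes (1.15 ± 0.06), and the troponin gene *Tnnc1* (1.12 ± 0.19) rose, and *Lasp1* fell by 1.30 ± 0.29. With library-size scaling the count was 10 higher and 8 lower with a median of −0.07, where 9.89% of all genes were called higher and 45.7% lower. With counts per nucleus it was 3 and 8, and no share of all genes is given for that scaling. Of 19 epidermal barrier genes 1 was higher and 4 lower, with a median of −0.16, among them the fatty acid transporter gene *Slc27a4* (−0.90 ± 0.20). In CA1-like nuclei *Trp63*, the epidermal master regulator gene, rose by 1.64 ± 0.24 (adjusted p = 5.82e-05) and *Lor* fell by 1.22 ± 0.34 (adjusted p = 0.00893). The counts of the other lists moved in the same sense with library-size scaling, to 2 higher and 7 lower for meiosis, 4 and 14 for the axoneme and 0 and 9 for the epidermis.

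Of 28 genes for factors that keep germ-line genes silent tested in DG granule-like nuclei, 11 were called lower and 5 higher, with a median of −0.25. Over all 15599 genes tested there, 26.4% were called lower and 23.5% higher. The DNA methyltransferase gene *Dnmt1* fell by 1.90 ± 0.24 (adjusted p = 3.55e-06), the Polycomb-associated *L3mbtl2* by 1.39 ± 0.18 (adjusted p = 3.96e-06) and the histone methyltransferase gene *Setdb1* by 1.19 ± 0.09 (adjusted p = 4.35e-09). *Hdac1*, a target of the drug, rose by 1.04 ± 0.08 (adjusted p = 7.03e-09). All 4 calls held with library-size scaling and with counts per nucleus. Library-size scaling gave 3 higher and 20 lower for the list, where it called 9.89% of all genes higher and 45.7% lower.

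Near relatives of the 10 genes were looked at in the same classes. *Sh2d4a*, *Nup210* and *Sycp2l* had too few UMIs to be tested in the class of their relative. *Trio*, the gene of a guanine nucleotide exchange factor with a kinase domain, rose in OPC-like nuclei by 1.52 ± 0.15 (adjusted p = 2.79e-08), and *Fndc3b* rose in Cajal-Retzius-like nuclei by 1.08 ± 0.21 (adjusted p = 0.0153). *Abca1*, a cholesterol transporter gene, changed by 0.86 ± 0.43 in subicular-like nuclei and was not called (adjusted p = 0.175). In microglia-like nuclei the neighbours of *AU019990* and *Sh2d4b* moved less than the genes themselves: *Gpcpd1*, 10.5 kb away on the other strand, rose by 1.10 ± 0.16 (adjusted p = 3e-09) and *Tspan14*, 13.2 kb before *Sh2d4b*, by 0.56 ± 0.19 (adjusted p = 0.0104). The *Tspan14* call was lost with library-size scaling and with counts per nucleus. With counts per nucleus the *Gpcpd1* and *Fndc3b* calls were lost as well (edgeR adjusted p = 0.0778 and 0.0580).

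Patterns over the 66 levels set the genes apart. *Sh2d4b* was most like *Nup210l* (r = 0.69), with r = 0.09 over the 33 vehicle levels and 0.88 over the 33 inhibitor levels. Both genes were chosen for a rise with the inhibitor, and both rose most in microglia-like nuclei. The higher r under inhibitor is therefore partly built in, and nothing is read from it. *AU019990* was most like *Dnm2* (r = 0.69) and *Dnmt3a* (r = 0.69). *Nup210l* was most like *Olfr111* (r = 0.80) and *Gm42601* (r = 0.79), *Fhad1* like *Mef2c* (r = 0.71) and *Srl* (r = 0.69), and *Abca12* like *Mirt1* (r = 0.71) and *Atp2a2* (r = 0.69). *Scn8a* was among the 2 genes most like *Speg* (r = 0.82). *Fndc1* was most like *Kcnq1* (r = 0.82) and its antisense transcript *Kcnq1ot1* (r = 0.80), and *Mettl24* like *Sybu* (r = 0.80) and *Lgi1* (r = 0.78).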

How the data were processed

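Single-nucleus RNA was measured in 6 libraries of pooled mouse hippocampi. The UMI counts per gene and barcode were deposited by the authors as whole numbers with no normalization, with Cell Ranger 3.0.1 (CFC) and 3.0.2 (Context) per the file headers. The submitters' processing notes name mm10 and Seurat 4.0.3. Whether introns or the strand were used in counting is not given in the sources used here.

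Barcodes under 500 genes or over 5% mitochondrial UMIs were dropped, Scrublet doublets (expected rate 0.06) were removed, 1.98% to 4.54% per library, and clusters (scanpy 1.11.5, leidenalg 0.10.2, 2000 variable genes, 30 components, 20 neighbours, resolution 1, seed 0) were named from marker lists. A name needed a mean log2 ratio of at least 0.8, 3 markers seen in a share of 0.1 of nuclei and a marker among the 10 leading genes. UMIs were summed per library in 11 classes with at least 30 nuclei per library. edgeR 4.0.16 in R 4.3.3 (filterByExpr, TMM, quasi-likelihood test, Benjamini-Hochberg over all genes of a class, called at an adjusted p below 0.05) compared drug groups in the 4 CFC libraries, and CFC with Context in all 6 with drug as covariate. Total UMIs were 24508202 to 45570814 per library. Intervals are exact at 95%, floors are 3 counts, and both cover counting error only. Tests on simulated data with drug libraries' means recovered 38% of 100 genes changed 2-fold and 82% of 100 changed 4-fold in microglia-like nuclei (6963 genes), and 55% and 93% in DG granule-like nuclei (15599 genes). Far fewer genes changed there than were called in the data, where 20.8% were called higher in microglia-like nuclei. The recovered shares therefore describe the simulation and are not the power in these data.

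The 10 genes and all gene lists were chosen with earlier results of these data known. Named besides them were up to 4 called genes of each list with the largest change in DG granule-like and up to 2 in CA1-like nuclei (mean log2 CPM of at least 2), nearest annotated genes, and the 2 genes of most similar pattern among those with at least 200 UMIs, of which 1 is not reported here. *Trio*, *Fndc3b*, *Nebl* and *Abca1* were named after their values were seen. IDs were looked up in GENCODE M21 (30934 of 31053, 99.6%), and promoter windows come from RefSeq, GRCm38.p6. Alternatives were library-size scaling, counts per nucleus, DESeq2 1.42.0, no count filter, doublets kept, gating by markers, a replicate block, each library left out and, chosen after seeing the data, thinning to 1000 UMIs and fits of unnamed clusters.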

Additional observations from a re-analysis of the deposited data

Results flagged for a closer look

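For 5 genes the inhibitor and vehicle libraries were fully apart after CFC in opposite directions in 2 classes, each with at least 30 UMIs of the gene and with Context in the same direction. The difference between classes was not tested. The share of all genes with such a pattern is not given here, and the rises belong to the contrast that chose the genes. Nothing is read from the number of such genes. *Nup210l* and *Speg* were apart in opposite directions after CFC as well, but the lower *Nup210l* classes were higher in Context and the lower *Speg* class, Cajal-Retzius-like, had under 30 UMIs. *Sh2d4b* had a ratio of mean CPM (inhibitor over vehicle) of 0.567 in DG granule-like and 53.6 in microglia-like nuclei, and in Context 0.758 in the former. *AU019990* had 0.862 and 13.6 in the same classes, and 0.833 and 14.1 in Context. *Sycp2* had 0.723 in DG granule-like and 3.13 in OPC-like nuclei, and 0.737 and 2.54 in Context. *Neb* had 0.852 in CA1-like and 2.66 in interneuron-like nuclei, and 0.646 and 2.42 in Context. *Fndc1* had 0.271 in subicular-like and 9.59 in Cajal-Retzius-like nuclei, and 0.840 and 4.04 in Context. These ratios use library-size CPM. The TMM values of *AU019990* in DG granule-like nuclei (0.15 ± 0.18) and of *Neb* in CA1-like nuclei (0.10 ± 0.26) have the other sign, and neither was called.

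Outside the fitted classes, *Nup210l* had 18 UMIs over both HDACi-CFC libraries in mural and leptomeningeal-like nuclei, against 5 over both Veh-CFC libraries. *Mettl24* had 11 UMIs against 3 in unnamed cluster 23. Neither group had enough nuclei per library for a fit.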

How the results depend on the processing

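Of the pairs of gene and class, 28 were called higher and 1 lower with the inhibitor, and these numbers were 21 and 8 with library-size scaling, 15 and 6 with counts per nucleus, 19 and 0 with DESeq2, 29 and 2 with no count filter, 28 and 2 with doublets kept and 26 and 0 with nuclei gated by markers. With each library left out in turn they were 24 to 27 and 0 to 2. Shares over all genes are given above for TMM and library-size scaling only. Nothing is read from the counts of this section. Between CFC and Context, 9 were higher and 14 lower, with 7 lower in DESeq2, and 6 to 11 higher and 8 to 13 lower when single libraries were left out. The *Fndc1* difference in CA3-like nuclei (−0.71) was −1.79 without HDACi-Context replicate 1 and turned to 0.14 without Veh-Context replicate 1, the lowest and the highest of the values with single libraries left out. Over single pairs, 272 drug values kept their direction and side of the threshold and 46 lost the call, and for exposure 250 kept them, 47 lost the call and 1 reversed. The near-silent rule gave 99 pairs over all genes, 74 with under 1 CPM in vehicle and 43 with at least 10 CPM in inhibitor, and 0 of the 10 genes under each. The Context log2 ratio of *Sycp2* in OPC-like nuclei, 1.34, was 1.73 with TMM factors. With the replicate block, 27 were higher and 1 lower for the drug, and 8 and 10 for exposure. The numbers do not pair the libraries: in the 11 classes same-numbered libraries' deviations correlated at −0.06 to 0.09 over 2 pairs. The cause of these shifts was not tested. Shares of nuclei moved by more than the spread between replicates in 51 of 60 values thinned to 1000 or 2000 UMIs or counted from 2 UMIs, each of which removes UMIs or nuclei. Of the 11 named classes, microglia-like nuclei were the shallowest, with medians of 1357 to 1953 UMIs, and unnamed cluster 13 was shallower (837 to 1205). In simulated data 38% of 2-fold drug changes were recovered in microglia-like (6963 genes) and in OPC-like nuclei (7016 genes), which describes the simulation only.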
